A study of Mus musculus with 18 samples.

Results

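Poly(A) RNA of vitrified mouse cerebral cortex was compared with that of fresh cortex over all genes. The comparison used 3 vitrified and 3 fresh libraries, 6 of the 18 in a study that also covered snap-frozen cortex and the hippocampus in the same 3 states. For vitrification, cortex was loaded with ethylene glycol (28 wt%), dimethyl sulfoxide (22.3 wt%) and sucrose (17.1 g) in phosphate-buffered saline (32.6 wt%). Loading went through 25%, 50%, 75% and 100% of this solution, with 5 min at each strength. The tissue was then plunged into liquid nitrogen, held for 4 days at -80 °C, brought back to liquid at 37 °C and freed of cryoprotectant in descending steps before it was homogenized for RNA. Snap-frozen cortex went straight into liquid nitrogen with no cryoprotectant, and fresh cortex had no treatment. The labels give no strain, genotype, age or number of animals for any group and name no transgene. Vitrified and fresh cortex differ in the cryoprotectants, the incubation steps, the cold and the storage at once, so effects of these cannot be told apart.

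Vitrification turns water into a glass instead of ice, and needs permeating cryoprotectants at concentrations that draw water out of cells and let it back in on unloading. In brain, water crosses membranes largely through aquaporins of astrocytes and of the choroid plexus, the epithelium that hangs in the ventricles and makes cerebrospinal fluid. The cortex is covered by the meninges, whose fibroblasts and resident macrophages also follow vessels into the tissue. Many neuronal and stress response transcripts are short-lived, so that their level follows the last minutes to hours before RNA is taken.

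Libraries held 15725356 to 16066001 counts in vitrified, 17289466 to 17480302 in snap-frozen and 16904072 to 17085727 in fresh cortex. Replicates were close: counts of replicate pairs of vitrified or of fresh cortex differed by 1.22 to 1.51 times the sampling noise (chi-square per degree of freedom), and the variation beyond that noise was 2.71% over all cortex libraries. Replicate 3 of the snap-frozen group differed from its 2 partners by 3.47 to 3.77 times the noise. Whether replicates are separate animals is not recorded, so the p-values speak only of the spread among the libraries, and that spread may be technical. Cortical markers were present: Slc17a7, the vesicular glutamate transporter of cortical excitatory neurons, had 1440.0, 1459 and 1462 CPM (counts per 1000000, scaled by TMM) in vitrified and 1444, 1468 and 1466 CPM in fresh cortex, and the layer markers Cux2, Rorb and Fezf2 were measured in all libraries. Their levels were not set beside those of hippocampus, so their presence does not tell the tissues apart. Markers of neighbouring regions were present in all libraries as well. The summed CPM of 15 striatal markers was 2075 to 2095 in vitrified and 2236 to 2251 in fresh libraries, that of 14 hippocampal markers 488 to 501 in vitrified and 512 to 522 in fresh libraries, and that of 15 thalamic markers 222 to 233 in vitrified and 238 to 244 in fresh libraries. All 3 sums were lower in every vitrified than in every fresh library. The sum of 12 olfactory and septal or basal forebrain markers went the other way, at 64.2 to 66.1 in vitrified and 62.0 to 63.6 in fresh libraries. The part of dissection in the results below was not tested.

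Most of the change was small, and the few large changes were mainly falls. Of 14470 genes tested, 5855 (40.5%) passed an adjusted p of 0.05, of which 3353 were higher (23.2%) and 2502 lower (17.3%) in vitrified cortex. The median absolute log2 fold change of these genes was 0.28, and 4531 of them changed by under 0.5. Whether more genes rose than fell depended on the scaling and the fit: 2210 rose and 2297 fell with DESeq2, 2903 rose and 2996 fell without a filter on low counts, 3232 rose and 3268 fell with the vitrified and fresh libraries alone, and 3050 rose and 3163 fell with GC and length offsets. Only 101 genes (0.698%) rose by over 1 on the log2 scale, and 159 (1.10%) fell by over 1. Beyond 2 there were 3 rises and 27 falls, and beyond 4 there were 6 falls. The 3 vitrified and 3 fresh libraries did not overlap for 52.5% of all genes tested. The median log2 fold change of all genes was 0.03, and every list below is set beside it. Counts of rises and falls in a list are to be read beside the 23.2% and 17.3% of all genes tested. How often a gene passed the test depended on its level: of genes under 1 CPM 7.93% did, and of genes at 50 CPM or more 51.7%.

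**Figure D1:**
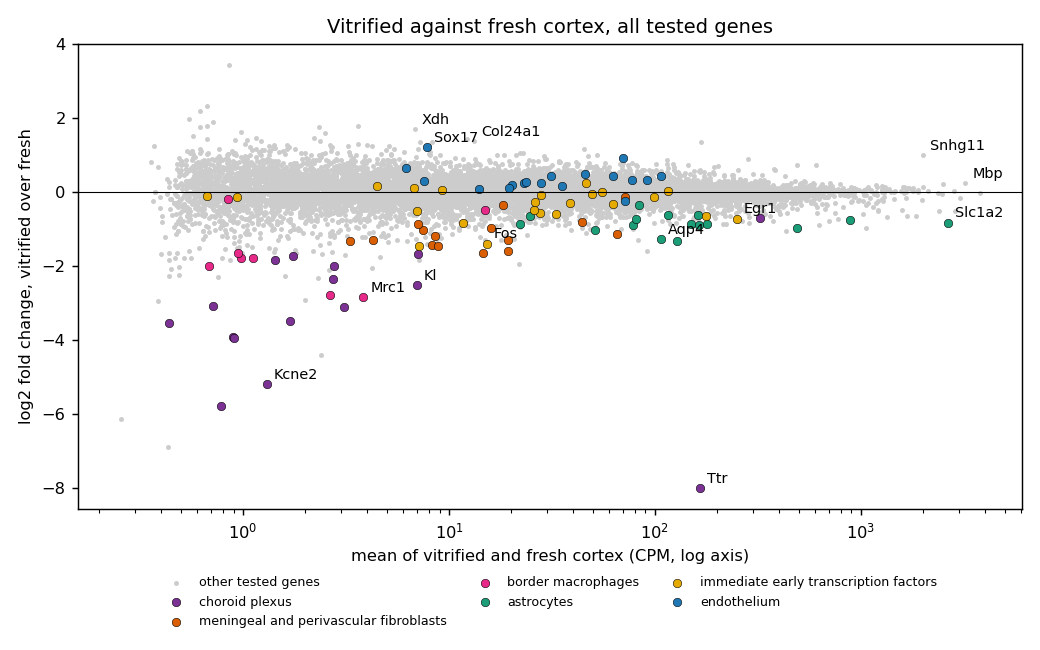
Each point is a gene of the cortex; the horizontal axis is the mean of vitrified and fresh cortex in CPM (log axis) and the vertical axis the log2 fold change, vitrified over fresh. The choroid plexus, meningeal and astrocyte markers all lie below 0, with Ttr at -7.99, and 15 of 18 endothelial markers rose.

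The largest falls were of choroid plexus transcripts. Ttr, the secreted carrier of thyroxine that this epithelium makes in bulk, had 1.36, 0.948 and 1.57 CPM in vitrified, 112, 119 and 116 CPM in snap-frozen and 371, 284 and 335 CPM in fresh cortex. All vitrified libraries were far below all others, and snap-frozen libraries lay between, below every fresh one. Kl (ENSMUSG00000058488.7, GRCm38 chromosome 5, 150952607 to 150993817, plus strand), which encodes klotho, a co-receptor for fibroblast growth factor signals, had 2.28, 2.21 and 1.76 CPM in vitrified and 12.7, 11.6 and 11.3 CPM in fresh cortex (log2 fold change -2.50 ± 0.13, SE, edgeR adjusted p = 1.9e-15). Kcnj13, a potassium channel of the ventricular face of the epithelium, had 0.617, 0.379 and 0.941 CPM in vitrified and 6.37, 4.23 and 6.07 CPM in fresh cortex (-3.09 ± 0.26, adjusted p = 7.5e-11). Groups did not overlap for either gene. In all, 16 of 16 tested markers of the choroid plexus fell and 0 rose, with a median of -3.08; 15 fell by over 1.

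Some choroid plexus transcripts were nearly gone from vitrified cortex. Otx2, the homeobox factor that maintains the epithelium, had 1 count in the 3 vitrified libraries together, against 78 in the 3 fresh ones. After correction for library size this is a ratio, fresh over vitrified, of 72.81, with an exact binomial interval of 12.69 to 2912 that covers counting error only. Kcne2, an accessory subunit of potassium channels, had 3 counts in vitrified and 129 in fresh cortex, a ratio of 40.14 (13.43 to 197.2). Tmem72, a membrane protein of this epithelium, had 3 counts in vitrified and 41 in fresh cortex, a ratio of 12.76 (4.07 to 64.4). Not every marker went this far: Clic6, a chloride channel protein, was at 3.40 ± 0.223 CPM in vitrified and 10.7 ± 0.533 CPM in fresh cortex (mean ± SD, n = 3 each), a log2 fold change of -1.65 ± 0.12. Enpp2, which makes lysophosphatidic acid and is also expressed by oligodendrocytes, was at 249.8 ± 3.42 CPM in vitrified and 401 ± 25.4 CPM in fresh cortex (-0.68 ± 0.04). Enpp2 alone accounted for most of what remained of the list, whose sum was 261 to 265 CPM in vitrified, 432 to 475 CPM in snap-frozen and 712 to 855 CPM in fresh libraries. In bulk tissue, fewer cells of a type and less RNA per cell cannot be told apart, here and for every cell type below.

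Markers of the meninges fell as a group, by less than those of the choroid plexus. Col1a2, a chain of fibrillar collagen, had 9.38, 9.11 and 10.3 CPM in vitrified, 21.0, 20.0 and 18.6 CPM in snap-frozen and 29.6, 28.6 and 28.4 CPM in fresh cortex. The 3 states did not overlap and followed the same order as Ttr. Slc13a4, a sulfate transporter of the meninges and choroid plexus, had 6.91, 7.27 and 7.03 CPM in vitrified and 22.4, 21.1 and 22.6 CPM in fresh cortex (log2 fold change -1.64 ± 0.08, adjusted p = 4e-16). The GABA and taurine transporter Slc6a13 (-1.46 ± 0.11), the small leucine-rich proteoglycan Fmod (-1.30 ± 0.08) and the organic anion transporter Slc22a6 (-1.03 ± 0.12) also fell. All 15 tested markers of meningeal and perivascular fibroblasts fell, 10 of them by over 1, with a median of -1.19. The smallest falls were of Pdgfra, which oligodendrocyte precursors also express, and of Dcn (-0.34 ± 0.10), whose fall missed the threshold with DESeq2 (adjusted p = 0.0621). Among the 15 largest falls of genes at 5 CPM or more whose groups did not overlap were 2 further secreted proteins of connective tissue: Myoc (myocilin), with 8.21, 9.30 and 9.73 CPM in vitrified and 35.3, 34.8 and 34.4 CPM in fresh cortex (-1.94 ± 0.07), and Prg4 (lubricin, -1.74 ± 0.16). Itih2, a hyaluronan-binding protein, fell by 2.04 ± 0.18.

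Border macrophages fell as well. These cells of the meninges, the choroid plexus and the spaces around vessels carry receptors that resting microglia largely lack. Mrc1, the mannose receptor of these macrophages, had 0.925, 1.14 and 0.753 CPM in vitrified, 5.54, 4.53 and 6.57 CPM in snap-frozen and 7.49, 7.10 and 5.59 CPM in fresh cortex (log2 fold change -2.83 ± 0.20, adjusted p = 2.4e-12). Vitrified libraries were below all others, while snap-frozen and fresh libraries overlapped. F13a1, a transglutaminase subunit (-2.78 ± 0.22), the chemokine Pf4 (-1.99 ± 0.38) and the hyaluronan receptor Lyve1 (-1.78 ± 0.30) fell in the same comparison. Of 8 tested members 7 fell and 0 rose, with a median of -1.77, and their summed CPM was 16.6 to 17.4 in vitrified and 33.9 to 37.8 in fresh libraries. Microglia, the macrophages of the tissue itself, showed much smaller changes: 7 of 17 markers fell and 1 rose, with a median of -0.05. Tmem119, a surface protein of microglia, was at 22.4 ± 0.454 CPM in vitrified and 32.0 ± 1.51 CPM in fresh cortex (-0.52 ± 0.06), and the complement genes C1qa (-0.30 ± 0.05), C1qb (-0.24 ± 0.05) and C1qc (-0.17 ± 0.05) fell. P2ry12, the purine receptor that steers microglial processes (0.10 ± 0.05, adjusted p = 0.15), did not pass the test. The fall of Csf1r, the growth factor receptor of microglia (-0.12 ± 0.04), passed with all libraries but not without fresh replicate 1 (adjusted p = 0.0932) or without vitrified replicate 1 (0.0787) or 2 (0.0513).

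**Figure D2:**
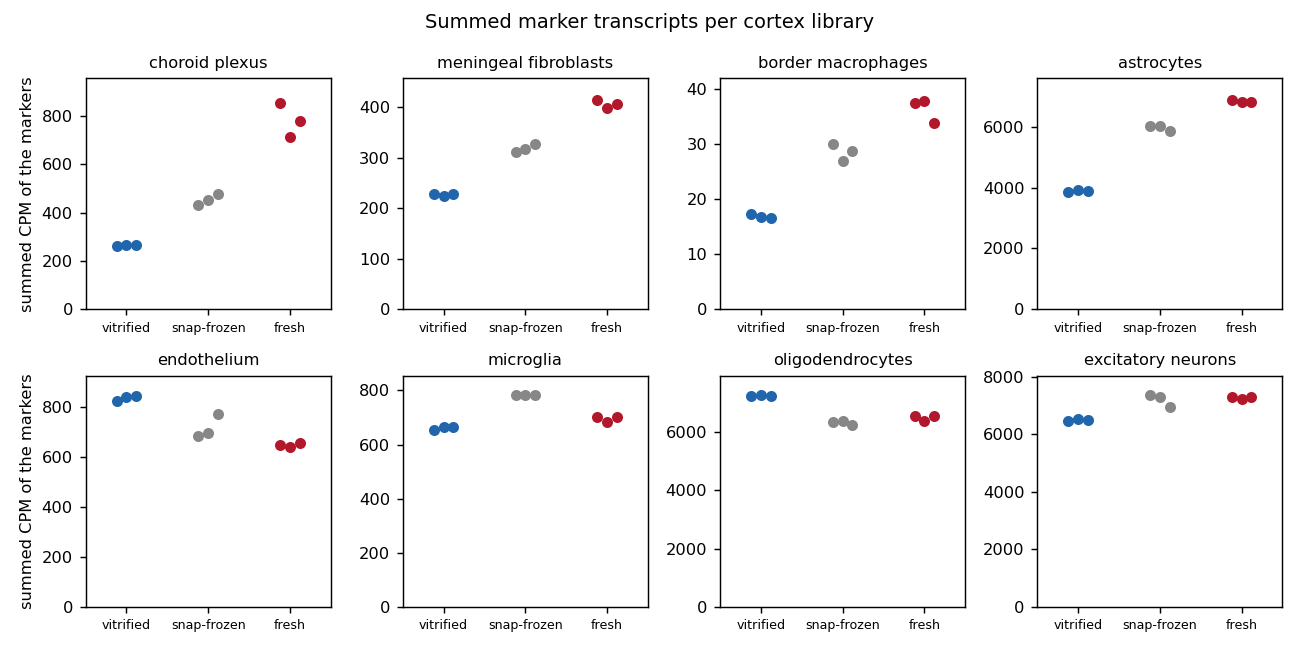
Each point is a cortex library; the vertical axis is the summed CPM of the markers of a cell type. Sums of choroid plexus, meningeal, border macrophage and astrocyte markers are lowest in the 3 vitrified libraries, and those of endothelium are highest there.

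Astrocyte transcripts fell by a narrower range than those of the brain's linings, and all of them did. All 16 markers fell, between -0.35 and -1.32, with a median of -0.84, and their sum was 3867 to 3920.0 CPM in vitrified, 5863 to 6037 CPM in snap-frozen and 6806 to 6876 CPM in fresh libraries. Genes with which astrocytes clear transmitter and potassium fell too, some of them outside this list. Slc1a2, the main glutamate transporter, had 1878, 1948 and 1924 CPM in vitrified, 2882, 2869.6 and 2742 CPM in snap-frozen and 3407, 3355 and 3377 CPM in fresh cortex (log2 fold change -0.82 ± 0.02, adjusted p = 2.6e-21). Libraries of the 3 states did not overlap, and the drop of Slc1a2 was the largest loss of CPM of any gene. Glul, which turns the glutamate into glutamine, was at 1321 ± 24.0 CPM in vitrified and 2046 ± 9.13 CPM in fresh cortex (-0.63 ± 0.03). The potassium channel Kcnj10 (-0.85 ± 0.04) and its partner Kcnj16 (-0.84 ± 0.06) fell alongside. Atp1b2, a beta subunit of the sodium pump, fell by 0.76 ± 0.05.

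The channels that astrocytes use for water and volume fell as well. Aqp4, the water channel of astrocyte endfeet, had 59.5, 64.1 and 64.6 CPM in vitrified, 142, 141 and 151 CPM in snap-frozen and 154, 147 and 152 CPM in fresh cortex. Vitrified libraries were far below all others, while snap-frozen and fresh libraries overlapped. Of 24 genes of water channels, gap junctions and volume-regulated channels 11 fell and 3 rose, with a median of -0.14, against 17.3% falls and 23.2% rises among all genes. The connexins Gjb2 (-1.25 ± 0.11), Gjb6 (-1.01 ± 0.05) and Gja1 (-0.85 ± 0.04), which couple astrocytes, were lower, and so were Mlc1 (-0.88 ± 0.04) of the endfoot membrane and the calcium channel Trpv4 (-0.75 ± 0.19), which opens on swelling. Aqp1, the water channel of the choroid plexus, fell by 1.71 ± 0.24. None of the 4 tested subunits of the volume-regulated anion channel (Lrrc8a to Lrrc8d) passed the test. Of 19 genes of osmolyte transport and osmotic response 6 rose and 6 fell. The betaine transporter Slc6a12 (-1.84 ± 0.35) and the urea channel Slc14a1 (-1.26 ± 0.11) were lower, whereas the taurine transporter Slc6a6, with 171, 179 and 186 CPM in vitrified and 142, 145 and 138 CPM in fresh cortex, rose by 0.33 ± 0.04. Nfat5, the transcription factor that induces osmolyte transporters in hypertonic medium, had 99.4, 100.4 and 100.1 CPM in vitrified, 71.9, 73.0 and 66.4 CPM in snap-frozen and 78.2, 77.8 and 78.3 CPM in fresh cortex (0.36 ± 0.04), with vitrified libraries above all others. Slc5a3, the inositol transporter, which Nfat5 is also known to induce, fell by 0.25 ± 0.07.

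Further glial products were lower. Gfap, the intermediate filament of astrocytes, had 71.4, 75.3 and 71.8 CPM in vitrified, 218, 219 and 215 CPM in snap-frozen and 183, 182 and 183 CPM in fresh cortex. Here snap-frozen libraries were the highest and vitrified ones the lowest. Dio2, the astrocyte enzyme that activates thyroxine, was at 47.8 ± 0.978 CPM in vitrified and 118 ± 2.18 CPM in fresh cortex (-1.30 ± 0.04). Apoe, the carrier of astrocyte lipid, was at 1045 ± 27.5 CPM in vitrified and 1647 ± 7.45 CPM in fresh cortex (-0.66 ± 0.02), while 10 of 28 genes of cholesterol synthesis and uptake fell and 6 rose (median -0.05). The matrix proteins Sparcl1 (-0.63 ± 0.02), Sparc (-0.64 ± 0.03) and Bcan (-0.36 ± 0.03) fell; so did the frizzled receptor Fzd2 (-0.86 ± 0.10), and 13 of 38 genes of the Notch and Wnt pathways against 5 that rose. The iron oxidase Heph, with 2.90, 3.54 and 2.95 CPM in vitrified and 11.1, 11.0 and 11.4 CPM in fresh cortex (-1.83 ± 0.13), and the ferrireductase Steap3 (-1.27 ± 0.12) had the largest falls among 16 genes of iron handling, of which 5 fell and 4 rose. The glycogen phosphorylases Pygm (-0.82 ± 0.06) and Pygb (-0.56 ± 0.03), which release the glycogen that astrocytes store, and Pfkfb3 (-0.75 ± 0.05), an activator of glycolysis, fell. The glycolytic enzyme Aldoc, also an astrocyte marker, fell by 0.76 ± 0.03. Of 29 genes of glycolysis and lactate transport 8 fell and 6 rose (median 0.01), against 17.3% falls and 23.2% rises among all genes.

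Endothelial transcripts were higher. Of 18 markers 15 rose and 1 fell, with a median of 0.31, and their sum was 826 to 847 CPM in vitrified, 687 to 775 CPM in snap-frozen and 641 to 658 CPM in fresh libraries. Sox17, a transcription factor of arteries, had 11.2, 10.3 and 11.2 CPM in vitrified, 6.23, 6.97 and 6.80 CPM in snap-frozen and 4.66, 5.11 and 4.28 CPM in fresh cortex (log2 fold change 1.22 ± 0.11, adjusted p = 2.2e-10). Its vitrified libraries were above all others. The organic anion transporter Slco1a4, with 90.4, 91.5 and 92.1 CPM in vitrified and 48.8, 44.8 and 50.5 CPM in fresh cortex, rose by 0.93 ± 0.07. The glucose transporter Slc2a1 (0.44 ± 0.04), the VEGF receptor Flt1 (0.44 ± 0.05) and Erg (0.65 ± 0.12), a factor of endothelial identity, rose too, and Abcb1a (0.50 ± 0.05), the drug efflux pump, rose but shares reads with another gene. The exception was the thyroxine transporter Slco1c1, which astrocytes also express and which fell by 0.24 ± 0.05. Kdr (0.13 ± 0.06, adjusted p = 0.12) and Cdh5 (0.08 ± 0.08, adjusted p = 0.46) did not pass. Mural cells did not share the rise: of 12 markers 2 rose and 3 fell (median 0.04), with the myosin Myh11 at 0.48 ± 0.12 and the peptidase Anpep at -0.59 ± 0.14. All 5 tested red cell genes rose (median 0.43), but 4 of them share reads with similar genes, and 3 passed without vitrified replicate 2, without fresh replicate 2 or with DESeq2.

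The medians of neuronal and oligodendrocyte markers stayed near that of all genes. Of 14 markers of excitatory neurons 6 rose and 2 fell (median 0.02), and of 17 markers of inhibitory neurons 6 rose and 4 fell (0.03). Both shares of rises were above the 23.2% of all genes tested, of which 17.3% fell. The summed CPM of the excitatory markers was nevertheless lower, at 6462 to 6527 in vitrified, 6956 to 7390.0 in snap-frozen and 7250.0 to 7318 in fresh libraries, and Camk2a, the member with the most counts, fell by 0.51 ± 0.03. Gad1, which makes GABA, had 423, 425 and 428 CPM in vitrified and 413, 419 and 418 CPM in fresh cortex, which did not overlap but differed too little to pass the test (0.03 ± 0.03, adjusted p = 0.4). Changes of single genes were clear: the factors Neurod1 (0.46 ± 0.09), Neurod2 (0.37 ± 0.05), Emx1 (0.47 ± 0.08) and Dlx1 (0.49 ± 0.07) rose, and so did the peptides Sst (0.43 ± 0.04) and Npy (0.27 ± 0.04). Markers of upper layers (median 0.02, 4 of 14 rose, 4 fell) and of deep layers (-0.10, 1 of 14 rose, 4 fell) gave no common direction. Of 16 oligodendrocyte markers 5 rose and 3 fell (median 0.02). Among them the myelin gene Mbp had 3452, 3509.5 and 3477 CPM in vitrified, 2882, 2869 and 2763 CPM in snap-frozen and 2974, 2844 and 2956 CPM in fresh cortex, with every vitrified library above every other. Opalin (0.55 ± 0.07) and Aspa (0.40 ± 0.09), both of myelinating cells, rose by more. Of 13 markers of oligodendrocyte precursors 3 rose and 4 fell (median -0.04). Ependymal markers, of the ciliated lining of the ventricles, had 7 falls and 2 rises among 14 (median -0.63), with the cilia regulator Foxj1 at -0.97 ± 0.14, but 3 fell without fresh replicate 1 or without vitrified replicate 2.

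Neuronal activity induces a first wave of transcription factors and a second wave of effectors that act at synapses, many through cyclic AMP and the element TGACGTCA (CRE) that CREB binds. Of 23 immediate early transcription factors 13 fell and 1 rose (median -0.26), and of 29 activity-induced effectors 20 fell and 3 rose (median -0.33). The CRE was found within 250 bases before to 50 after the start in the promoters of 5 of 22 effectors with a promoter in the RefSeq table (Pcsk1, Dusp1, Plk2, Arl5b and Btg2). It was found in 3.43% of 11396 tested genes with such a promoter. Since it is its own reverse complement, both strands read alike. Among 19 immediate early factors with a promoter, the CRE was found in Maff alone, and the CArG box, which serum response factor binds, in Egr2 alone (1.62% of tested genes hold a CArG box); no match says only that these letters are not in this window. Of those 391 tested genes with the element 73 (18.7%) fell, against 17.3% of all genes tested. The sequences of Pcsk1 (chr13:75089607-75089856, plus strand), Btg2 (chr1:134079156-134079405, minus strand) and Plk2 (chr13:110394794-110395043, plus strand; RefSeq, GRCm38.p6) are shown because the first pair fell and Plk2 is the 1 of the 5 that rose. They give the 250 bases before the start, 5′ to 3′, with the element in capitals; a match is a description and not a site of binding.
Pcsk1: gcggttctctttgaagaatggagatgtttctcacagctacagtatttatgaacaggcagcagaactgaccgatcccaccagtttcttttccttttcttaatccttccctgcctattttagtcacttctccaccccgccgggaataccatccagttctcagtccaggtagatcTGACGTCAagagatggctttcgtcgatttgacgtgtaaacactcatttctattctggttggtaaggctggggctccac
Btg2: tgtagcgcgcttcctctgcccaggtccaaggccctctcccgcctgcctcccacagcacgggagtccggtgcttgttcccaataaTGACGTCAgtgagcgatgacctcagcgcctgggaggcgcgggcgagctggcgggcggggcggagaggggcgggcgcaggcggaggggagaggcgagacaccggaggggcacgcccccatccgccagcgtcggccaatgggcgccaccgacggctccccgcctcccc
Plk2: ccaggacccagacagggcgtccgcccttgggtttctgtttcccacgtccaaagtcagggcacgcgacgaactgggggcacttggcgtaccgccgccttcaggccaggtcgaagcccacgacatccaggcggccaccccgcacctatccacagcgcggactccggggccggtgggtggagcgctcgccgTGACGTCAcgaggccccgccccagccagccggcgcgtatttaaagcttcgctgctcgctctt

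Pcsk1, the convertase that cuts peptide precursors, was at 46.8 ± 1.40 CPM in vitrified and 71.4 ± 1.13 CPM in fresh cortex (log2 fold change -0.61 ± 0.05). Btg2, a regulator of cell growth, fell by 0.64 ± 0.08, and Plk2, a kinase of synaptic scaling, rose by 0.17 ± 0.03. Larger falls came from genes without the element in this window. Arc, which traffics glutamate receptors out of synapses, had 45.5, 45.0 and 46.9 CPM in vitrified, 43.9, 40.6 and 40.6 CPM in snap-frozen and 138, 134 and 137 CPM in fresh cortex. Both vitrified and snap-frozen libraries were far below fresh ones, and vitrified libraries were the higher of those 2 groups. Egr2, a zinc finger factor, had 4.26, 4.17 and 3.08 CPM in vitrified, 4.04, 4.12 and 4.78 CPM in snap-frozen and 10.9, 9.39 and 11.0 CPM in fresh cortex (-1.44 ± 0.13, adjusted p = 1.5e-10), with fresh libraries above all others. Fos, a partner of Jun, had 9.01, 7.78 and 8.41 CPM in vitrified, 11.6, 10.5 and 10.7 CPM in snap-frozen and 21.5, 22.7 and 22.1 CPM in fresh cortex. Its 3 states did not overlap. Egr3 (-0.65 ± 0.04), Fosb (-0.83 ± 0.09) and Nr4a1 (-0.31 ± 0.04) fell, while Nr4a2, which marks deep cortical neurons, rose by 0.24 ± 0.06. Among effectors, Homer1 (-0.70 ± 0.03), the cyclooxygenase Ptgs2 (-0.62 ± 0.09), the pentraxin Nptx2 (-0.53 ± 0.05), the neurotrophin Bdnf (-0.40 ± 0.06) and the secreted peptide precursor Vgf (-0.33 ± 0.04) fell. Set against fresh cortex, snap-frozen cortex, which shares these fresh libraries, had medians of -0.22 for the factors and -0.10 for the effectors.

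Clock genes as a group stayed near all genes, of which 23.2% rose and 17.3% fell. Of 21 genes of the circadian clock 6 rose and 3 fell (median 0.03). The largest rise was of Ciart, a repressor of the clock, which was at 28.3 ± 1.75 CPM in vitrified, 15.3 ± 0.658 CPM in snap-frozen and 14.1 ± 0.564 CPM in fresh cortex (1.01 ± 0.07). The repressors Per3 (0.66 ± 0.05), Nr1d1 (0.51 ± 0.04) and Per1 (0.46 ± 0.04) and the output factor Dbp (0.43 ± 0.04) rose, and Cry1, Rora and Npas2 fell. The hour at which each piece was taken is not in the labels. Rbm3, an RNA-binding protein induced by cold, had 159, 149 and 153 CPM in vitrified, 103, 107 and 124 CPM in snap-frozen and 92.5, 89.8 and 91.5 CPM in fresh cortex (0.75 ± 0.05), and vitrified libraries did not overlap with fresh ones. Of 26 targets of glucocorticoid and FoxO 8 rose and 9 fell (median -0.05), among them Pdk4 (-0.91 ± 0.11), which spares glucose, and Cdkn1a (-0.64 ± 0.08), a cell cycle inhibitor, both lower.

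**Figure D3:**
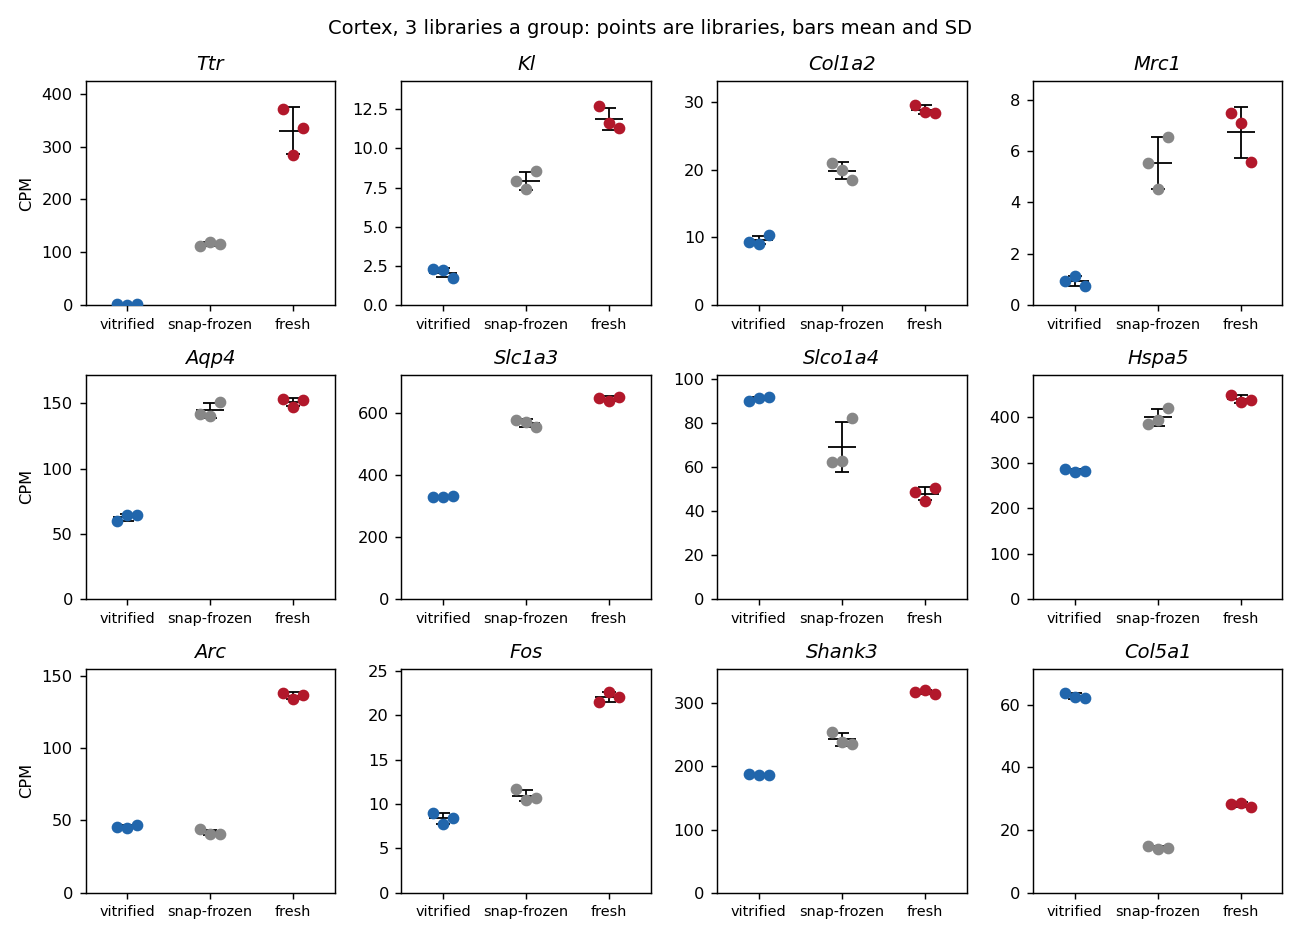
Each panel is a gene and each point a cortex library, in CPM, with the mean and SD of 3 libraries. Ttr, Kl, Col1a2, Mrc1, Aqp4, Slc1a3, Hspa5, Arc, Fos and Shank3 are lower in vitrified than in fresh cortex without overlap, and Slco1a4 and Col5a1 are higher.

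Chaperones of the endoplasmic reticulum (ER) fold secreted and membrane proteins, and many carry the ER stress element, CCAAT and CCACG with 9 bases of any kind between them, through which ATF6 with NF-Y raises them when folding fails. On either strand of the same promoter window, this element was found in 9 of 20 chaperones with a promoter in the table, in 0.176% of 11396 tested genes (20 genes) and in 0.119% of all 32851 promoters of this length. Of the 9, 7 fell in vitrified cortex (Hspa5, Hsp90b1, Pdia6, Calr, Canx, Dnajc3 and Creld2), and 2 did not pass the test (Syvn1 and Derl3). Over the 20 tested genes with the element 8 fell, with a median of -0.12, against 17.3% of all genes tested. Of these 8, 7 are the chaperones just named, so this count adds little to that of the list. The promoters of Hspa5 (chr2:34771840-34772089, plus strand), Dnajc3 (chr14:118937682-118937931, plus strand) and Calr (chr8:84846932-84847181, minus strand), which fell, are shown with that of Syvn1 (chr19:6046326-6046575, plus strand), which did not pass (RefSeq, GRCm38.p6). Each runs over the 250 bases before the start, 5′ to 3′, with the element in capitals; in Calr it lies on the other strand.
Hspa5: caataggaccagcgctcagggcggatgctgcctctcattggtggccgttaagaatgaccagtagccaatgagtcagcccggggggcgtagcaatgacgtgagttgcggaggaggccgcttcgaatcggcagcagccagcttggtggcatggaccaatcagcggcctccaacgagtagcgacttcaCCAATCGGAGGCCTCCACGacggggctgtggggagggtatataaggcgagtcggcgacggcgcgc
Dnajc3: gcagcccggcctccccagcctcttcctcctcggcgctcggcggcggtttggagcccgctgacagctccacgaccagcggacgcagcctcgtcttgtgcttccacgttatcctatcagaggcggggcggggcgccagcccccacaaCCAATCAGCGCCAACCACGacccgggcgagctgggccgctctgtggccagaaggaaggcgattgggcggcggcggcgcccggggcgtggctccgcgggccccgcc
Calr: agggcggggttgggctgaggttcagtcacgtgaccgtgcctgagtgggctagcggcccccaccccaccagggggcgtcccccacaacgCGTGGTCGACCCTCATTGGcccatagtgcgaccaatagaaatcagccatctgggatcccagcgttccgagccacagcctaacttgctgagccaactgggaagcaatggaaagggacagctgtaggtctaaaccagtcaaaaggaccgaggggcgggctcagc
Syvn1: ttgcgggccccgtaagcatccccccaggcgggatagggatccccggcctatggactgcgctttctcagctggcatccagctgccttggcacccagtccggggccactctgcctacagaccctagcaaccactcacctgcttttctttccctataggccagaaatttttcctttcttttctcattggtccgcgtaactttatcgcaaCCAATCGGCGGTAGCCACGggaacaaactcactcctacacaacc

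Hspa5, the main chaperone of the ER lumen, had 286, 279.7 and 282 CPM in vitrified, 386, 394 and 422 CPM in snap-frozen and 449, 433 and 439.6 CPM in fresh cortex (log2 fold change -0.64 ± 0.03, adjusted p = 6.3e-16). Vitrified libraries were below all others, and snap-frozen libraries lay just below fresh ones. Dnajc3, a co-chaperone, was at 52.7 ± 3.34 CPM in vitrified and 76.7 ± 1.21 CPM in fresh cortex (-0.54 ± 0.05), and Calr, the lectin chaperone calreticulin, at 396 ± 4.15 CPM in vitrified and 532 ± 6.57 CPM in fresh cortex (-0.42 ± 0.03). Syvn1, a ubiquitin ligase of ER-associated degradation, was at 55.4 ± 0.682 CPM in vitrified and 56.2 ± 1.23 CPM in fresh cortex (-0.02 ± 0.04), a difference within the spread. The disulfide isomerases Pdia4 (-0.60 ± 0.05) and Pdia3 (-0.36 ± 0.03), the secreted factor Manf (-0.47 ± 0.05) and the regulator Xbp1 (-0.33 ± 0.04) also fell. In all, 16 of 23 ER chaperones and degradation factors fell and 0 rose, with a median of -0.29. The integrated stress response, another branch of stress signalling, was less uniform: 8 of 26 fell, or 5 without fresh replicate 1 or vitrified replicate 2, and 3 rose (median -0.11). Slc7a11, the cystine transporter of astrocytes, was at 29.6 ± 0.953 CPM in vitrified and 63.3 ± 1.95 CPM in fresh cortex (-1.10 ± 0.05), and the serine synthesis enzyme Phgdh (-0.55 ± 0.04), also of astrocytes, fell; astrocyte markers fell in the same libraries, and their part in these falls was not tested. Atf4 itself fell by 0.14 ± 0.04. Of 27 cytosolic heat shock genes 12 fell and 2 rose (median -0.09), with the small heat shock protein Hspb8 at -1.02 ± 0.10 and Hspa8 at -0.21 ± 0.03. Hspa1a, the strongly inducible form, which shares reads with another gene, did not pass (0.08 ± 0.08, adjusted p = 0.46).

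Most redox defence genes were lower. Of 26 genes 17 fell and 1 rose (median -0.24). All 16 astrocyte markers fell in the same libraries, to 3867 to 3920.0 CPM in sum in vitrified, against 6806 to 6876 CPM in fresh cortex, and their part in this was not tested. The metallothioneins Mt1, with 92.3, 91.8 and 87.8 CPM in vitrified and 120.5, 121 and 129 CPM in fresh cortex (-0.45 ± 0.04), and Mt2 (-0.54 ± 0.05), which bind zinc and copper, fell. The glutathione transferase Gstm1 (-0.72 ± 0.04), the peroxiredoxin Prdx6 (-0.61 ± 0.03), Nfe2l2 (-0.49 ± 0.07), the regulator of this response, catalase (Cat, -0.24 ± 0.05) and mitochondrial superoxide dismutase (Sod2, -0.20 ± 0.03) were lower. Hmox1, the haem-degrading enzyme that oxidative stress induces, had 4.50, 4.74 and 5.08 CPM in vitrified and 5.25, 4.81 and 4.82 CPM in fresh cortex; the libraries overlapped and the test did not pass (-0.06 ± 0.13, adjusted p = 0.77). Cell death genes moved little: 4 of 29 rose and 3 fell (median 0.06), against 23.2% rises and 17.3% falls among all genes. The anti-apoptotic Bcl2 was at -0.69 ± 0.06 and the pro-apoptotic Bbc3 at 0.50 ± 0.14. The count of rises among these 29 genes was 2 with DESeq2 or without vitrified replicate 2 and 8 with plain library totals or without snap-frozen replicate 3.

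At the synapse, most scaffolds and transcripts carried into dendrites fell, while the glutamate receptors stayed near all genes. Shank3, a master scaffold of the postsynaptic density, had 188, 186 and 186 CPM in vitrified, 254, 239 and 235 CPM in snap-frozen and 318, 322 and 314 CPM in fresh cortex. The 3 states did not overlap. Its relatives Shank1 (-0.53 ± 0.04) and Shank2 (-0.49 ± 0.04), the linker Dlgap3 (-0.55 ± 0.03), the scaffold Sipa1l1 (-0.58 ± 0.04) and Homer2 (-0.53 ± 0.05) fell too, whereas Dlgap2 rose by 0.15 ± 0.04. Of 26 scaffolds 17 fell and 3 rose (median -0.21). Of 27 transcripts carried into dendrites 15 fell and 5 rose (median -0.16); the lists share members such as Arc and Shank3. Camk2a, the kinase whose mRNA is translated in dendrites, had 2319, 2358 and 2415 CPM in vitrified, 3185, 3128 and 2895 CPM in snap-frozen and 3399, 3292 and 3392 CPM in fresh cortex (-0.51 ± 0.03). Map2 (-0.40 ± 0.03), the dendritic microtubule protein, Ppp1r9b (-0.57 ± 0.03), of spines, and Ddn (-0.48 ± 0.03) fell, but Nrgn, another dendritic transcript, rose by 0.15 ± 0.03.

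Ionotropic glutamate receptors with their auxiliary subunits had 9 rises and 4 falls among 27 (median 0.02), near the shares of all genes, of which 23.2% rose and 17.3% fell. The AMPA receptor subunits Gria2, at 764 ± 25.2 CPM in vitrified and 645 ± 4.22 CPM in fresh cortex (0.24 ± 0.03), Gria3 (0.25 ± 0.03) and Gria4 (0.28 ± 0.04) rose, and so did the obligatory NMDA subunit Grin1 (0.19 ± 0.03). Gria1 (-0.01 ± 0.03, adjusted p = 0.8) and Grin2b (-0.05 ± 0.03, adjusted p = 0.28) did not pass, but Grin2b fell with GC and length offsets (-0.21, adjusted p = 1.82e-09) and with the vitrified and fresh libraries alone (-0.07, adjusted p = 0.00646). The auxiliary subunits Cacng2 (-0.33 ± 0.04) and Cnih2 (-0.23 ± 0.03) fell. Of 7 metabotropic receptors 3 rose and 3 fell. Grm2 rose by 0.55 ± 0.06 and Grm3, which astrocytes express, fell by 0.61 ± 0.05, while the calls of Grm4, Grm5 and Grm8 were each lost under some alternatives. GABA-A and glycine receptors had 2 rises and 2 falls among 17, with Gabrg1, also of astrocytes, at -0.70 ± 0.07. Of 38 genes of vesicle release 14 rose and 9 fell (median 0.06), and Snap25, a SNARE of synaptic vesicles, was at 2702 ± 29.9 CPM in vitrified and 2296 ± 37.5 CPM in fresh cortex (0.23 ± 0.02). Of 25 neuropeptides and granins 6 rose and 9 fell, and the sorting protein Cpe, at 1978 ± 3.31 CPM in vitrified and 2824 ± 32.3 CPM in fresh cortex, fell by 0.51 ± 0.02.

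The title of the study points to proteins built into membranes, and families of such proteins were counted for this reason. Potassium channels had 21 rises and 19 falls among 78 (median -0.01). The largest falls were of Kcne2 and Kcnj13 from the choroid plexus and Kcnj10 and Kcnj16 from astrocytes, and the rises included the leak channel Kcnk9 (0.53 ± 0.04). Sodium, calcium, HCN and TRP channels had 25 rises and 9 falls among 59 (median 0.10), among them the calcium channel subunits Cacna1d (0.44 ± 0.05), Cacna1b (0.35 ± 0.04) and Cacna2d1 (0.27 ± 0.03), which rose. Solute carriers were balanced, with 61 rises and 60 falls among 272 (median -0.01). ABC transporters had 17 rises, or 11 with DESeq2, and 9 falls among 40 (median 0.11), with Abcg2 (0.48 ± 0.07), an efflux pump of the blood-brain barrier, among the rises. Protocadherins and cadherins had 13 rises and 16 falls among 86 (median 0.01), and tight junction genes 3 rises and 6 falls among 13. Tetraspanins had 2 rises and 12 falls among 24 (median -0.12), with Tspan12 at -0.56 ± 0.07 and Cd63 at -0.46 ± 0.06. Of all genes tested 23.2% rose and 17.3% fell. The share of rises was highest in sodium, calcium, HCN and TRP channels and in ABC transporters. Tetraspanins and tight junction genes had the highest shares of falls. All of these families but sodium, calcium, HCN and TRP channels had a share of falls above that of all genes. Families were not tested as sets.

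**Figure D4:**
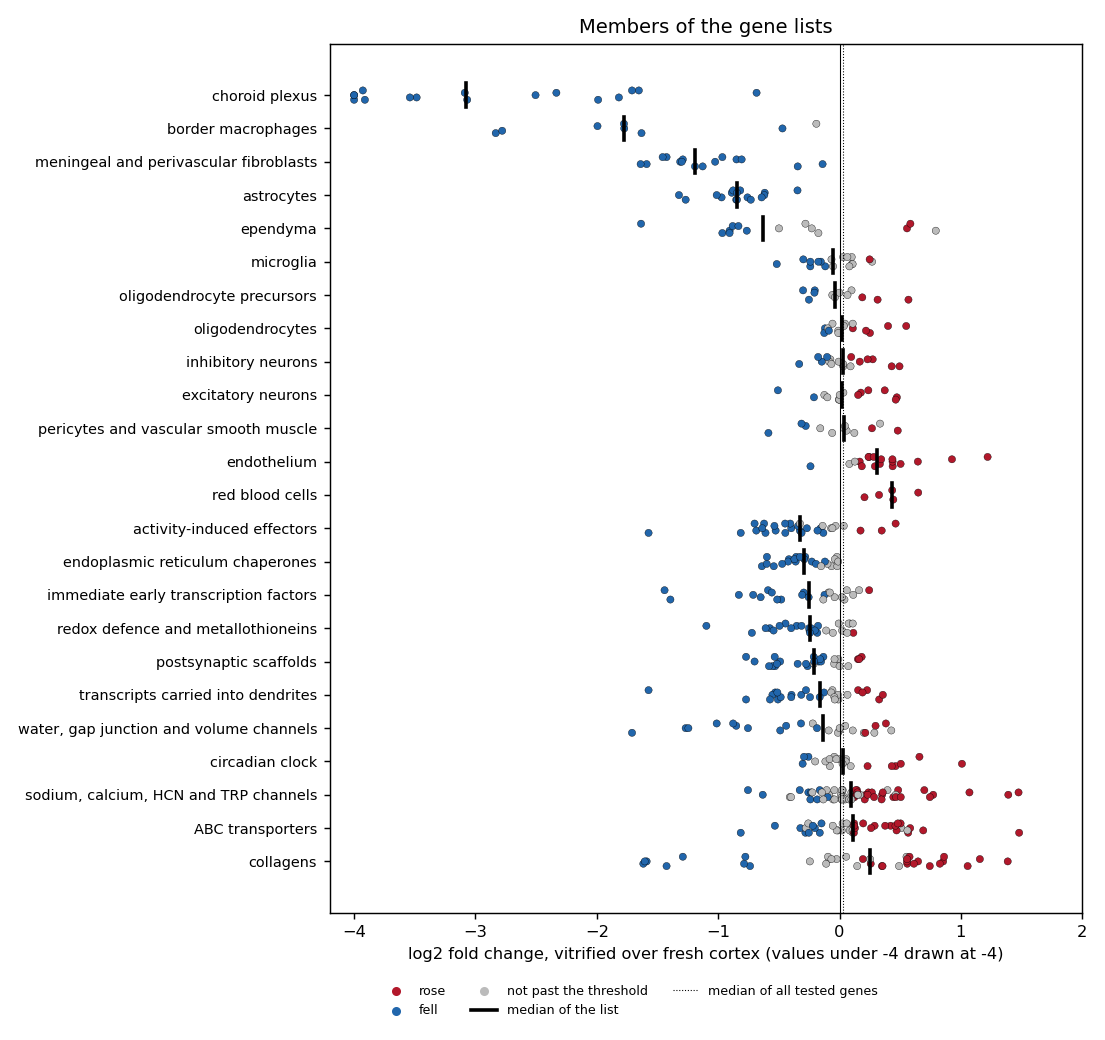
Each row is a gene list and each point a member, placed by its log2 fold change, vitrified over fresh (values under -4 are drawn at -4). Thick bars are list medians, from -3.08 for the choroid plexus to 0.43 for red blood cells, and the dotted line is the median of all genes, 0.03.

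Collagens went both ways. Of 36 tested collagen genes 17 rose and 8 fell, with a median of 0.25. The fibrillar chains of the meninges, Col1a1 (-1.43 ± 0.13), Col1a2 and Col3a1 (-1.29 ± 0.15), were among the falls. Col5a1, a fibrillar chain of low abundance that nucleates fibrils, had 63.7, 62.4 and 62.0 CPM in vitrified, 15.1, 14.0 and 14.2 CPM in snap-frozen and 28.3, 28.7 and 27.4 CPM in fresh cortex. Vitrified libraries were the highest and snap-frozen ones the lowest, with no overlap. Col24a1, another minor fibrillar chain, was at 19.2 ± 0.586 CPM in vitrified, 3.68 ± 0.725 CPM in snap-frozen and 7.34 ± 0.513 CPM in fresh cortex (1.39 ± 0.09), in the same order. Col6a4 (1.36 ± 0.13), Col6a1 (0.86 ± 0.04) and Col19a1 (0.83 ± 0.06) rose too. Hmcn1 (hemicentin, 1.26 ± 0.15) and the metalloproteinase Adam33 (1.25 ± 0.12) were other matrix genes among the 15 largest rises at 5 CPM or more without overlap.

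The remaining rises of that set had no common function in the lists. Galnt15, which starts sugar chains on secreted proteins, had 5.61, 5.88 and 5.40 CPM in vitrified, 2.13, 3.08 and 3.11 CPM in snap-frozen and 2.12, 1.41 and 1.31 CPM in fresh cortex, the highest fold of the rises named (1.80 ± 0.18, adjusted p = 2.2e-09). Xdh, the last enzyme of purine breakdown, had 11.2, 8.73 and 11.4 CPM in vitrified, 2.77, 3.43 and 3.69 CPM in snap-frozen and 2.30, 2.88 and 4.40 CPM in fresh cortex (1.71 ± 0.16). For both genes vitrified libraries were above all others. The phospholipase Pla2g4e (1.43 ± 0.09), the spindle checkpoint kinase Bub1b (1.29 ± 0.17) and Rnf207 (1.17 ± 0.16) rose by similar steps. Ndn, an imprinted regulator of neuronal growth, had 240.4, 248 and 238 CPM in vitrified, 271, 272 and 269 CPM in snap-frozen and 91.2, 95.9 and 93.8 CPM in fresh cortex. Both vitrified and snap-frozen libraries were far above fresh ones, with snap-frozen ones the highest. Snhg11, a noncoding host of small nucleolar RNAs, had 2616, 2708 and 2685 CPM in vitrified, 674, 736 and 729 CPM in snap-frozen and 1305, 1354 and 1332 CPM in fresh cortex (1.00 ± 0.03), the largest gain of CPM of any gene. Here vitrified libraries were the highest and snap-frozen ones the lowest, without overlap. Srrm2, a protein of splicing speckles (755 ± 16.2 CPM in vitrified, 303 ± 20.3 in snap-frozen and 454 ± 1.85 in fresh cortex), had the same order. Trank1, a large protein of neurons, was at 612 ± 9.74 CPM in vitrified, 251 ± 11.4 CPM in snap-frozen and 367 ± 1.53 CPM in fresh cortex. Genes with Zfp symbols, zinc finger factors, had 89 rises and 22 falls among 367 (median 0.08), against 23.2% rises and 17.3% falls among all genes, and 73 of them share reads.

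Housekeeping families held few calls, except for the respiratory chain under some fits. Cytosolic ribosomal proteins had 0 rises and 4 falls among 81, mitochondrial ribosomal proteins 8 rises and 4 falls among 78, the respiratory chain 1 rise and 6 falls among 92, and proteasome subunits 7 rises and 1 fall among 37. In this fit the shares of rises and of falls are below those of all genes. The medians were 0.01, 0.01, -0.03 and 0.07. The falls among the 92 respiratory chain genes depended on the fit and numbered 18 with RLE factors, 30 with the vitrified and fresh libraries alone, 28 with GC and length offsets, and 22 without the filter or without snap-frozen replicate 3. Gapdh (0.04 ± 0.02, adjusted p = 0.22) and Actb (0.03 ± 0.03, adjusted p = 0.35), both of which share reads with similar genes, did not pass; Gapdh passed without snap-frozen replicate 3 (0.04, adjusted p = 0.0435).

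The share of genes called, and the balance of rises and falls, varied with transcript length and base composition, while median changes were small. In 5 classes of length from shortest to longest the median log2 fold changes were 0.05, 0.04, 0.02, 0.01 and 0.03. From the shortest to the longest class 18.9%, 22.2%, 23.7%, 22.5% and 28.5% of genes rose, and 9.85%, 14.6%, 18.2%, 21.4% and 22.9% fell. In 5 classes of GC content from low to high the medians were 0.02, 0.02, 0.02, 0.03 and 0.06. Across them 21.4%, 21.2%, 20.6%, 23.4% and 29.2% rose, and 15.6%, 18.1%, 20.0%, 17.7% and 15.5% fell. With GC and length offsets 49.1% of calls were rises, against 57.3% without them.

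The effect of vitrification in cortex was set beside that in hippocampus, where the same states were measured in other libraries. The effects differed for 1913 of 14827 genes (12.9%, interaction test in edgeR over 18 libraries, adjusted p under 0.05), with 1040 effects more positive and 873 more negative in cortex. Genes named above for the brain's linings in cortex had large differences. Ttr fell in cortex but had 9.55 ± 0.743 CPM in vitrified and 6.42 ± 0.891 CPM in fresh hippocampus, a difference of effects of -8.58 ± 0.26 (adjusted p = 9.4e-27). Kl had 23.5 ± 0.517 CPM in vitrified and 24.2 ± 0.916 CPM in fresh hippocampus (-2.49 ± 0.14). The 3 fresh libraries held 1181 counts of Kl and 314 of Ttr in hippocampus, against 603 and 16757 in cortex. Which cells the Kl counts of hippocampus came from was not tested. The meningeal genes Fmod (-2.75 ± 0.17), Slc22a6 (-2.38 ± 0.24) and Prg4 (-2.47 ± 0.38) fell in cortex and had effects of opposite sign in hippocampus. In hippocampus Prg4 rests on 49 counts in vitrified and 31 in fresh libraries, which overlapped, so its sign there is uncertain. The median of meningeal markers was -1.19 in cortex and 0.30 in hippocampus, and that of choroid plexus markers -3.08 in cortex and -0.26 in hippocampus. Some choroid plexus markers were barely present in fresh hippocampus. Kcnj13 and Kcne2 were each under 1 CPM there, with 6 counts of Kcnj13 in the 3 fresh libraries, whereas Kl and Enpp2 were well above 1 CPM. Where so few counts were present a fall could hardly be seen, so the choroid plexus medians do not compare the size of the effect between tissues. The median of astrocyte markers was -0.84 in cortex and -1.43 in hippocampus; Slc1a2 (0.67 ± 0.03), Slc1a3 (0.55 ± 0.04) and Aqp4 (0.34 ± 0.05) fell less in cortex. Arc (-1.02 ± 0.05), Egr1 (-0.62 ± 0.05) and Fos (-0.50 ± 0.14) had a more negative effect in cortex. Hspa5 (0.00 ± 0.04, adjusted p = 0.98), Mbp (0.00 ± 0.03, adjusted p = 0.98) and Col5a1 (-0.03 ± 0.08, adjusted p = 0.9) gave no difference between tissues that passed the test. Of the 159 genes that fell by over 1 in cortex, 70 had a log2 fold change under -1 in hippocampus, where no test was asked for. Any without a hippocampus value were counted with the rest. The share of all genes with such a change in hippocampus was not counted, so no excess is read from this.

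**Figure D5:**
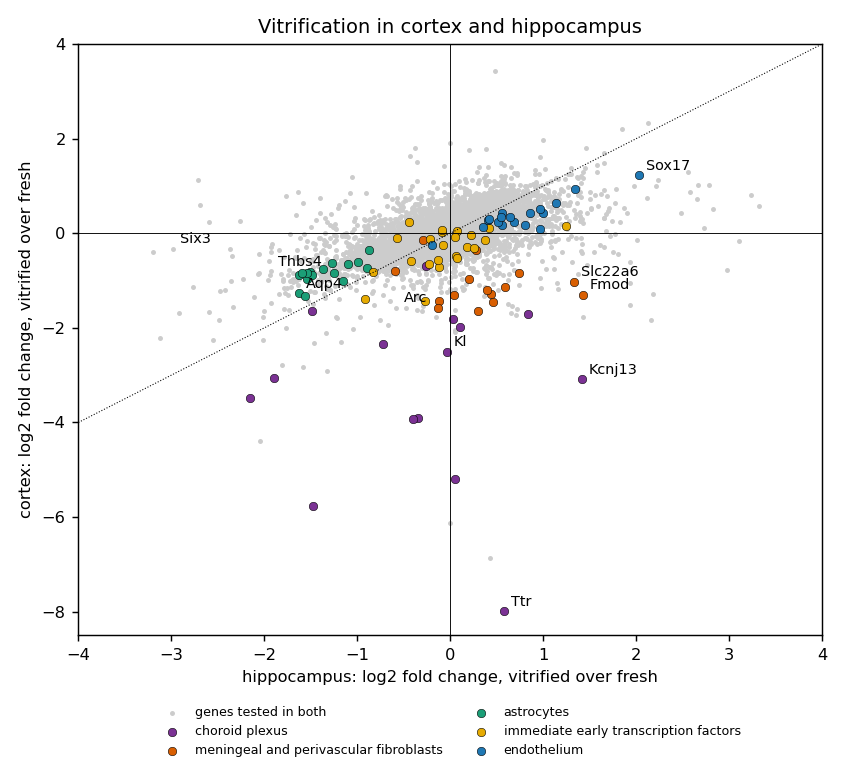
Each point is a gene, placed by its log2 fold change, vitrified over fresh, in hippocampus (horizontal axis) and in cortex (vertical axis); the dotted line marks equal effects. Most choroid plexus and meningeal markers lie below the line, the 16 astrocyte markers lie above it in the lower left, and Ttr stands at 0.57 in hippocampus and -7.99 in cortex.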

How the data were processed

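The authors deposited expected counts, a table of genes by libraries for each tissue. The submitters' processing notes name HISAT2 2.0.4 and the build GRCm38.p6. How reads were counted, on which strand and against which annotation is not given in the sources used here, so a gene and its antisense partner may not be told apart. Of 18235 cortex genes, 1408 held fractions of reads and are said to share reads. Positions come from GENCODE M21 by symbol, for 17579 genes.

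Values were rounded and tested with edgeR 4.0.16 (quasi-likelihood, TMM, default filter by group, 14470 genes) over the 9 cortex libraries, with Benjamini-Hochberg adjusted p; the SE comes from the F statistic. CPM use TMM-scaled totals, and marker sums use plain totals. A count of 3 was 0.187 to 0.191 CPM in vitrified libraries. The fit was tested on simulated counts. Log2 fold changes come from the fit and are not shrunk. The tables hold 0 mitochondrially encoded genes.

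Gene lists and members were chosen with earlier results of these data known. Named by rule were the 15 largest rises and falls above 5 CPM without overlap, the 6 largest changes in CPM each way, up to 5 called members of each of 60 lists, 6 tissue differences each way and 26 fixed genes; other genes were named after their values were seen. Protein sequences were not analysed here, and some genes are not reported here. Alternatives were RLE factors, plain totals, other filters, DESeq2 1.42.0, limma-voom 3.58.1, fewer libraries, a replicate block, and GC and length offsets.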

Additional observations from a re-analysis of the deposited data

Results flagged for a closer look

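The results here concern genes whose vitrification effect in cortex differed from that in hippocampus by an interaction test (adjusted p under 0.05, edgeR); there were 1913 of them. Values are the log2 effect in cortex minus that in hippocampus.

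Of genes named for the choroid plexus and meninges in cortex, Ttr stood at -8.58, Kcnj13 at -4.53, Fmod at -2.75, Kl at -2.49, Prg4 at -2.47, Slc22a6 at -2.38 and Col1a2 at -1.48. Of immediate early and activity-induced genes, Arc stood at -1.02, Egr1 at -0.62 and Fos at -0.50. Of astrocyte genes, Slc1a2 stood at 0.67, Slc1a3 at 0.55, Aqp4 at 0.34 and Gfap at 0.21. The thrombospondin Thbs4 stood at 1.10, with 6.39 ± 0.709 CPM in vitrified and 24.3 ± 0.282 CPM in fresh hippocampus.

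Csf1r of microglia stood at 0.60, the endothelial Cldn5 at -0.45, the scaffold Shank3 at 0.16, Nfat5 at 0.17 and Slc6a6 at -0.18. The axonemal gene Cfap54 stood at 1.24, Ccdc187 at 1.20, the kappa opioid receptor Oprk1 at 1.07, and the uncharacterized LOC100861978, which shares reads, at 1.52. Counts of LOC100861978 varied widely in hippocampus, with 98, 11 and 46 in vitrified and 97, 48 and 90 in fresh libraries, so its value is uncertain. Six3, a homeobox factor, stood at 2.63; this rests on 2 counts in the 3 vitrified and 19 counts in the 3 fresh hippocampus libraries, so the size is uncertain, and its change within cortex (-0.33 ± 0.11) was lost with DESeq2 (adjusted p = 0.071) or without fresh replicate 1 (0.126) or vitrified replicate 1 (0.0682). The value of Kcnj13 likewise rests on 16 counts in vitrified and 6 counts in fresh hippocampus, and that of Prg4 on 49 and 31 counts. No explanation of these differences was tested.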

How the results depend on the processing

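The number of genes that rose changed most with the tool: 2210 with DESeq2, against 3353 in the main result. Falls outnumbered rises with DESeq2 (2210 rose, 2297 fell), without a filter (2903 rose, 2996 fell), with the vitrified and fresh libraries alone (3232 rose, 3268 fell) and with GC and length offsets (3050 rose, 3163 fell). Rises outnumbered falls with RLE factors (2966 rose, 2877 fell), plain library totals (3716 rose, 2257 fell), at least 1 CPM in 3 libraries (3344 rose, 2477 fell) and limma-voom (3340 rose, 2488 fell). Leaving out 1 library at a time gave 5032 to 6609 genes in all (2859 to 3792 higher, 2173 to 2817 lower), 264 to 284 past a log2 change of 1 (100 to 112 higher, 160 to 172 lower) and 1582 to 1651 with a tissue difference. The same-numbered libraries did not vary together (correlations -0.11 to 0.09); with the replicate block 5863 genes passed. The median of all genes stayed between 0.00 and 0.05 under the alternatives.

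Of 371 named genes, 33 lost and 5 gained their call under at least 1 alternative. Where the main or the alternative fit called the gene, 0 changed sign. Changes of sign among genes called in neither fit were not counted. Genes that lost it included Ddit3, Grm5, Hbb-bt, Psmd3 and H3c14. Of 120 list counts, 40 moved by over 1.5 times under some alternative, among them the red cell, ependymal, integrated stress response, respiratory chain and proteasome counts. The counts of falls for astrocytes, choroid plexus, meninges, border macrophages, immediate early factors, effectors, ER chaperones and scaffolds, and of rises for endothelium, did not. Depth limits calls below 1 CPM, where 7.93% of genes passed. The causes of these shifts were not tested.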

Other observations

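Genes of the matrix around neurons were more often lower than higher, whereas of all genes tested 23.2% rose and 17.3% fell. Of 30 genes of perineuronal nets and matrix enzymes 14 fell and 4 rose (median -0.06), among them the protease inhibitors Timp4, at 18.2 ± 1.09 CPM in vitrified and 31.5 ± 0.561 CPM in fresh cortex (log2 fold change -0.80 ± 0.06), and Timp3 (-0.74 ± 0.04). Of 30 neurofilament, tubulin and microtubule genes 9 rose and 8 fell (median 0.03), with the neurofilament Nefl at -0.29 ± 0.03, the tubulin Tubb2b, which shares reads, at -0.67 ± 0.03, and the microtubule protein Map7 at 0.50 ± 0.04. Of 18 genes of thyroid hormone handling and response 6 fell and 3 rose (median -0.04); Ttr and Dio2 are members. Of 18 sodium and calcium pump genes 5 rose and 4 fell (median 0.01), with the regulators Fxyd1 at -0.57 ± 0.09 and Fxyd7 at 0.44 ± 0.05.

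Genes of motile cilia went both ways: 8 of 50 rose and 8 fell (median 0.02). Drc7, of the axonemal regulatory complex, was at -1.47 ± 0.29 and Cfap65 at 0.67 ± 0.13. Of 7 tested histone genes 1 rose and 2 fell, with the linker histones H1f2 at -0.81 ± 0.11 and H1f10 at 0.30 ± 0.07. The histone genes were picked by symbol, and whether each is replication-dependent was not checked. Replication-dependent histone mRNAs lack a poly(A) tail, and the libraries were made from poly(A) RNA. Among markers of neighbouring regions, 6 of 15 striatal genes fell and 1 rose (median -0.12), 4 of 14 hippocampal genes fell and 3 rose (median -0.12), and 2 of 13 thalamic genes fell and 2 rose (median -0.09). Of 11 olfactory and basal forebrain markers 3 rose and 0 fell (median -0.13): Eomes, a factor of olfactory bulb projection neurons, had 1.54, 1.58 and 1.32 CPM in vitrified, 0.346, 0.00 and 0.0576 CPM in snap-frozen and 0.472, 0.587 and 0.357 CPM in fresh cortex (1.63 ± 0.35, edgeR adjusted p = 0.00041), and Th, the enzyme of dopamine synthesis, and Cdhr1, of mitral cells, were at 0.53 ± 0.15 and 0.53 ± 0.10.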
